A study of Mus musculus with 6 samples.

Results

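The Hippo genes described here are the kinase genes Stk3, Lats1 and Lats2, the scaffold gene Sav1, the coactivator genes Yap1 and Wwtr1 and the 4 TEAD transcription factor genes Tead1 to Tead4. They were taken by symbol from a fixed list of 10 genes, each matched to a single Ensembl row among the 53700 gene rows of the count tables. Of these 10 genes, 9 were among the 16473 genes with enough counts to be tested, and Tead4 was not.

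Counts came from mouse oocytes at the germinal vesicle (GV) stage, which are arrested in meiotic prophase and hold the stored maternal mRNAs that the egg and early embryo use. The knockout group had 3 libraries of Zar1 knockout oocytes, titled Zar -/-, and the wild-type group had 3 libraries of wild-type oocytes, titled Zar +/+. All 6 libraries were on the C57BL/6N strain background, and each was made from the poly(A) RNA of 10 oocytes. ZAR1, the product of zygote arrest 1, is an RNA-binding protein of the oocyte, and the study asks how oocytes store mRNA. Each library is labelled as a biological replicate, with no word on which animals gave the oocytes. The sources used here do not describe the knockout allele, the age of the females or any hormone treatment. The p-values below therefore measure the spread between these libraries.

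The libraries held 32126555 to 39148833 counts on genes. Zar1 itself had 69, 96 and 226 counts in the knockout libraries, against 15245, 13612 and 12810 counts in those of the wild type (log2 fold change -6.75, adjusted p = 1.15e-05, edgeR), as the genotype labels say. Marker genes of the oocyte (10 listed genes, Zp3 and Gdf9 among them) summed to 14920 to 16167 CPM (counts scaled by TMM-adjusted library size, as edgeR gives them) in the knockout libraries and 12847 to 14306 CPM in the wild-type libraries. Of these 10 markers, 6 were called higher and 2 lower in knockout oocytes, or 80% against 33.4% of all tested genes. Their called log2 fold changes lay between -0.32 for Bmp15 and 0.91 for Figla. A list of 12 granulosa cell markers summed to 126 to 137 CPM in knockout and 106 to 117 CPM in wild-type libraries, nearly all of it Cyp19a1 and Nr5a2, while Amh, Foxl2 and Ptx3 were at or near 0. Of the 8 granulosa markers tested, 2 were called higher in knockout oocytes, Nr5a2 (log2 fold change 0.59) and Has2 (1.40), and 1 lower, Kitl (-2.33). That is 37.5% of the tested granulosa markers, against 33.4% of all tested genes. Has2 averaged 4.61 ± 1.47 CPM in knockout and 1.74 ± 0.354 CPM in wild-type oocytes, and Kitl averaged 0.797 ± 0.472 CPM in knockout and 4.02 ± 0.321 CPM in wild-type oocytes. A list of 8 blood and stromal markers summed to 29.7 to 33.9 CPM in knockout and 24.2 to 26.1 CPM in wild-type libraries, nearly all of it Pecam1, and the haemoglobin genes Hba-a1 and Hbb-bs had 0 counts. The part of such cells in the differences below was not tested.

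In the Hippo pathway, the kinases STK3 and STK4, held by the scaffold SAV1, activate the kinases LATS1 and LATS2 together with the adaptors MOB1A and MOB1B. LATS phosphorylates the coactivators YAP (from Yap1) and TAZ (from Wwtr1), which are then kept in the cytoplasm or degraded. Unphosphorylated YAP and TAZ enter the nucleus and activate genes by binding TEAD factors, since they do not bind DNA themselves. Mouse embryos that lack YAP supplied by the oocyte activate their own genome poorly, and later in the preimplantation embryo the same pathway separates the trophectoderm, where YAP and TEAD4 are active, from the inner cell mass.

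Stored maternal mRNAs often carry a cytoplasmic polyadenylation element, a U-rich motif near the 3' end that recruits CPEB1 and lets the poly(A) tail be lengthened when the mRNA is called into translation. The motif was searched as TTTTAT or TTTTAAT, on the transcript strand, in the last 150 bases of the longest annotated protein-coding transcript of each gene. Of the 9 tested Hippo genes, 5 held it there, against 25.3% of the 11903 tested coding genes with a 3' UTR (untranslated region) of at least 150 bases. The windows are shown because they are the shared feature of the 3 most abundant Hippo mRNAs, with the motif in capitals, 5' to 3' as DNA, from the GENCODE transcripts of the GRCm38 annotation:
Yap1: tacaataaaccaatTTTTATaatcttaaaa
Wwtr1: cagatgaaaccaTTTTATctagagtctggt
Stk3: gtgtgtgtgttcTTTTATgtgttaattact
Sav1: tttcgcatttgaTTTTATataacaagttat
Lats1: aatcagtctgtTTTTAATgaatctatttgt
The motif ended 10 bases before the annotated end of the transcript in Yap1, 71 in Wwtr1, 58 in Stk3, 32 in Sav1 and 84 in Lats1. Tead1, Tead2, Tead3 and Lats2 had no match in that window. The letters alone do not show that a site is used, and the transcript ends used in oocytes may differ from the annotated ones.

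Across the pathway core, knockout oocytes had less Lats1 and Tead1 mRNA than wild-type oocytes, while Yap1, Wwtr1, Stk3, Sav1, Lats2, Tead2 and Tead3 did not pass the test. Thus 2 of the 9 tested Hippo genes were called, both lower, and 0 were called higher. A call here is an adjusted p under 0.05 in edgeR's quasi-likelihood test with Benjamini-Hochberg adjustment over all tested genes. By that rule 33.4% of all tested genes were called in either direction, 14.9% higher and 18.5% lower in knockout oocytes, so the Hippo count, 22.2% of the tested genes, is no higher than the background. Each library is a pool, so fewer oocytes with an mRNA and less of it per oocyte cannot be told apart. The median log2 fold change, knockout over wild type, was 0.04 over the 9 Hippo genes and 0.0075 over all tested genes.

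**Figure D1:**
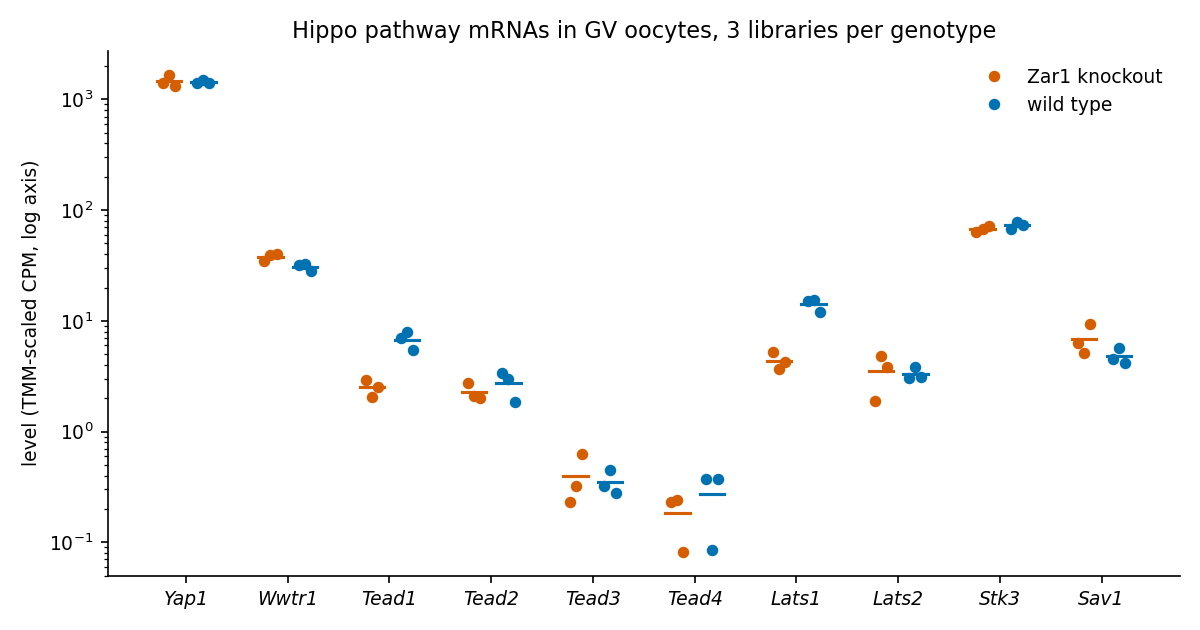
Level of each of the 10 Hippo genes in CPM (log axis) in every library, with Zar1 knockout oocytes in orange on the left and wild-type oocytes in blue on the right of each pair; dots are libraries and bars are means of 3. The groups lie apart for Lats1 and Tead1, with all knockout libraries lower, and for Wwtr1, with all knockout libraries higher by a small step, while Yap1 stands far above the rest in both genotypes.

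Yap1 (ENSMUSG00000053110.14, chromosome 9), which encodes the coactivator YAP, was by far the most abundant of the 10 genes. It had 1410, 1674 and 1329 CPM in the knockout libraries, against 1408, 1490 and 1403 CPM in the wild-type libraries. The groups overlapped, with the highest and the lowest value both among the knockout libraries. The mean was 1471 ± 180 CPM in knockout and 1434 ± 49.1 CPM in wild-type oocytes (SD, n = 3 each). The log2 fold change was 0.04 with a 95% interval of -0.16 to 0.24 and did not pass edgeR's test (adjusted p = 0.788). In fold terms the interval ran between 0.892 and 1.18, which bounds the change in Yap1 mRNA on both sides. By mean CPM, Yap1 ranked 74 in knockout and 65 in wild-type oocytes among 34886 genes with a count. These ranks do not account for length, and the exons of Yap1 span 9257 bases. Its rank among mRNAs per length is therefore not given.

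The 5 genes whose level followed Yap1 most closely across the 6 libraries were Nek2 (Pearson r 0.987), Cmc1 (0.970), Timeless (0.968), Agfg1 (0.961) and Bod1 (0.958), picked among 7223 genes as the highest r. None of the 5 passed the test between the genotypes. Nek2, a centrosomal kinase gene, averaged 126 ± 12.7 CPM in knockout and 123 ± 3.21 CPM in wild-type oocytes. Bod1, a gene for a chromosome-alignment protein, averaged 798 ± 103 CPM in knockout and 787 ± 30.8 CPM in wild-type oocytes. The points are 6 libraries that share their depth and composition between genes, so these values only describe which genes vary alike.

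Wwtr1 (ENSMUSG00000027803.15, chromosome 3), which encodes the YAP paralog TAZ, had 35.0, 39.3 and 39.9 CPM in the knockout libraries, against 31.7, 32.4 and 27.9 CPM in the wild-type libraries. Every knockout library stood above every wild-type library, by a narrow margin. The log2 fold change was 0.31 with a 95% interval of 0.070 to 0.55, and the adjusted p of 0.0508 in edgeR's test lay just outside the threshold. It passed in 6 of the 17 alternatives. Among these, the adjusted p was 0.0440 with DESeq2's size factors in edgeR and 0.0211 in DESeq2 itself. After a correction for transcript GC content and length it was 0.00404 (edgeR), with a log2 fold change of 0.55. In the other alternatives Wwtr1 did not pass. Among those, the adjusted p was 0.119 with no filter and 0.0925 with a replicate block (edgeR). It was 0.0540 in limma-voom and 0.198 without wild-type replicate 3 (edgeR). Over the 17 alternatives its adjusted p spanned 0.00404 to 1, the last of these in the test against a 1.5-fold change. Yap1 and Wwtr1 per length of exon stood in a ratio of 20.8, 22.0 and 17.2 in the knockout libraries, against 22.9, 23.8 and 25.9 in the wild-type libraries. Per kb of the longest transcript the ratio was 45.3, 48.0 and 37.5 in knockout libraries, against 49.9, 51.8 and 56.5 in wild-type libraries. The size of this ratio thus depends on the length used.

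Tead1 (ENSMUSG00000055320.19, chromosome 7), a gene for a DNA-binding partner of YAP and TAZ, was lower in knockout oocytes. It had 2.95, 2.04 and 2.54 CPM in the knockout libraries, against 7.01, 7.92 and 5.42 CPM in the wild-type libraries. The highest knockout library lay well below the lowest wild-type library. The mean was 2.51 ± 0.456 CPM in knockout and 6.78 ± 1.26 CPM in wild-type oocytes (SD, n = 3 each). The log2 fold change was -1.43 ± 0.23 (SE), with a 95% interval of -1.96 to -0.90 and an adjusted p of 0.00194 in edgeR's test. The knockout level was 37.0% of the wild-type level, and it rests on 76 to 103 counts per knockout library and 176 to 282 counts per wild-type library.

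The other TEAD genes did not pass. Tead2, the TEAD gene with the highest level per length in knockout oocytes, had 2.72, 2.09 and 2.00 CPM in the knockout libraries, against 3.38, 3.01 and 1.85 CPM in the wild-type libraries. These groups overlapped, and the log2 fold change was -0.28 with a 95% interval of -0.95 to 0.40 (adjusted p = 0.514, edgeR). Tead3 had only 8, 12 and 23 counts in the knockout libraries, against 13, 16 and 9 counts in the wild-type libraries, with a log2 fold change of 0.16 and an interval of -0.98 to 1.30. A log2 change of 1 lies inside that interval, so a change of that size is not excluded. Tead4, the TEAD gene of the trophectoderm lineage, had 8, 9 and 3 counts in the knockout libraries, against 15, 3 and 12 counts in the wild-type ones. It was too low to test.

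Set side by side per kilobase of exon, the 4 TEAD genes summed to 0.883, 0.702 and 0.721 CPM per kb in the knockout libraries, against 1.37, 1.30 and 0.930 CPM per kb in the wild-type libraries. All knockout sums lay below all wild-type sums, with the wild-type replicate 3 library close to the knockout range. Tead1 made up 24.6%, 21.4% and 26.0% of that sum in the knockout libraries, against 37.6%, 44.8% and 43.0% in the wild-type libraries. Tead2 made up 64.3%, 62.2% and 57.8% of it in the knockout libraries, against 51.4%, 48.2% and 41.5% in the wild-type libraries. The make-up of TEAD mRNA thus had a smaller Tead1 share in every knockout library than in any wild-type library. The level of Yap1 per kb was 172, 257 and 199 times the TEAD sum in the knockout libraries, against 111, 124 and 163 times in the wild-type libraries. Per kb of the longest transcript it was 270, 395 and 290 times in knockout libraries, against 174, 191 and 257 in wild-type libraries. These sums and shares were not tested as such.

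Lats1 (ENSMUSG00000040021.14, chromosome 10), which encodes a kinase that inactivates YAP and TAZ, showed the lowest fold change of the 9 tested Hippo genes. It had 5.27, 3.65 and 4.21 CPM in the knockout libraries, against 14.95, 15.3 and 12.02 CPM in the wild-type libraries. All 3 knockout libraries lay below all 3 wild-type libraries, with a wide gap. The mean was 4.38 ± 0.822 CPM in knockout and 14.1 ± 1.80 CPM in wild-type oocytes (SD, n = 3 each). The log2 fold change was -1.69 ± 0.19 (SE), with a 95% interval of -2.12 to -1.25 and an adjusted p of 0.000301 in edgeR's test. The knockout level was 31.1% of the wild-type level. It rests on 184, 136 and 154 counts in the knockout libraries, against 602, 539 and 390 counts in the wild-type libraries.

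Lats2, the second LATS kinase gene, had 1.89, 4.78 and 3.86 CPM in the knockout libraries, against 3.03, 3.80 and 3.11 CPM in the wild-type libraries. The knockout libraries spread on both sides of the wild-type ones, and the log2 fold change of 0.08 had an interval of -0.67 to 0.83 (adjusted p = 0.874, edgeR). The Lats2 level is uncertain: its annotated exons share 2955 bases on the same strand with the predicted gene Gm49361, which had 0 counts in every library. Reads in shared bases can be set aside as ambiguous, which would lower the Lats2 level and raise the share of Lats1 below. Per kb of exon, Lats1 and Lats2 together came to 0.993, 1.19 and 1.13 CPM per kb in the knockout libraries, against 2.48, 2.64 and 2.09 CPM per kb in the wild-type libraries. Lats1 made up 72.7%, 42.2% and 51.1% of that LATS sum in the knockout libraries, against 82.5%, 79.4% and 78.7% in the wild-type libraries. Per kb of the longest transcript its share was 66.75%, 35.5% and 44.0% in knockout libraries, against 78.0%, 74.3% and 73.5% in wild-type libraries. The sum was thus lower in every knockout library, and the share of Lats1 varied widely among the knockout libraries.

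**Figure D2:**
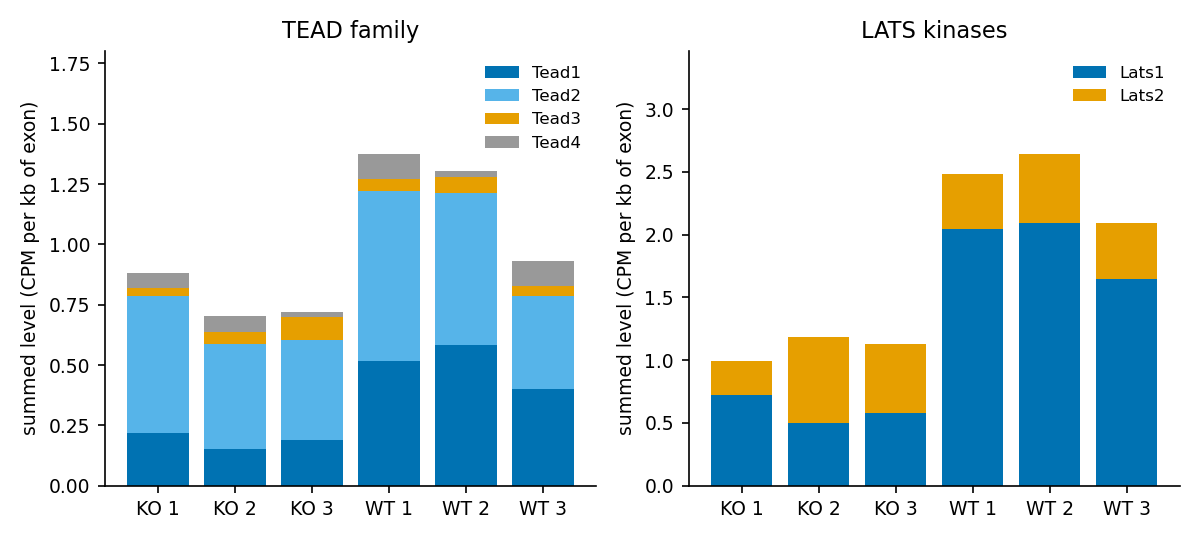
Summed level in CPM per kilobase of exon of the TEAD genes (left panel) and of the LATS kinase genes (right panel) in each library, stacked by gene, with the 3 knockout (KO) libraries left of the 3 wild-type (WT) libraries. The Tead1 and Lats1 segments are shorter in every KO library than in any WT library, while the Tead2 and Lats2 segments overlap between the genotypes.

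Stk3, which encodes the upstream kinase MST2, was the second most abundant of the 10 genes. It had 63.2, 67.9 and 72.3 CPM in the knockout libraries, against 68.2, 78.9 and 73.5 CPM in the wild-type libraries. The groups overlapped and the log2 fold change was -0.12, with an interval of -0.32 to 0.091 and an adjusted p of 0.366 in edgeR's test. Its paralog Stk4, which encodes MST1, averaged 13.9 ± 2.30 CPM in knockout and 18.8 ± 6.62 CPM in wild-type oocytes and did not pass either. Stk3 made up 80.3%, 80.8% and 86.1% of the level per kb of this kinase pair in the knockout libraries, against 74.5%, 76.8% and 86.3% in the wild-type libraries.

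Sav1, the scaffold of the MST kinases, had 6.30, 5.12 and 9.30 CPM in the knockout libraries, against 4.52, 5.67 and 4.16 CPM in the wild-type libraries. The means were 6.91 ± 2.15 CPM in knockout and 4.79 ± 0.791 CPM in wild-type oocytes, with overlapping groups. The log2 fold change of 0.53 had an interval of -0.04 to 1.10 and did not pass edgeR's test (adjusted p = 0.141). Sav1 shares 1336 exon bases with Atl1 on the opposite strand, and the sources used here do not say whether the counting used strand, so its level is uncertain. Atl1 itself averaged 31.0 ± 2.65 CPM in knockout and 30.7 ± 1.26 CPM in wild-type oocytes.

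Per kilobase of exon, the order of the levels in knockout oocytes began with Yap1 at 159 ± 19.5 CPM per kb, then Stk3 at 11.1 ± 0.739, Wwtr1 at 7.97 ± 0.558 and Sav1 at 1.31 ± 0.409 CPM per kb. Below them came Lats1 at 0.600 ± 0.113, Lats2 at 0.503 ± 0.212, Tead2 at 0.474 ± 0.0820 and Tead1 at 0.185 ± 0.0336 CPM per kb, and then Tead3 at 0.0586 and Tead4 at 0.0512 CPM per kb. In knockout oocytes the neighbours Lats1, Lats2 and Tead2 did not differ beyond their spread, nor did Tead3 and Tead4. The place of Lats2 in this order is uncertain because of its exon overlap with Gm49361. In wild-type oocytes Lats1, at 1.93 CPM per kb, stood above Sav1, at 0.909 CPM per kb, and Tead1, at 0.4997 CPM per kb, stood level with Tead2, at 0.573 CPM per kb. Among these 10 genes, Yap1 thus stood far above the others in both genotypes.

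The other 65 listed genes of the pathway were grouped by role, and 60 of them were tested. Of these 60, 11 were called higher and 11 lower, or 36.7% against the 33.4% of all tested genes, and their median log2 fold change was -0.03.

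**Figure D3:**
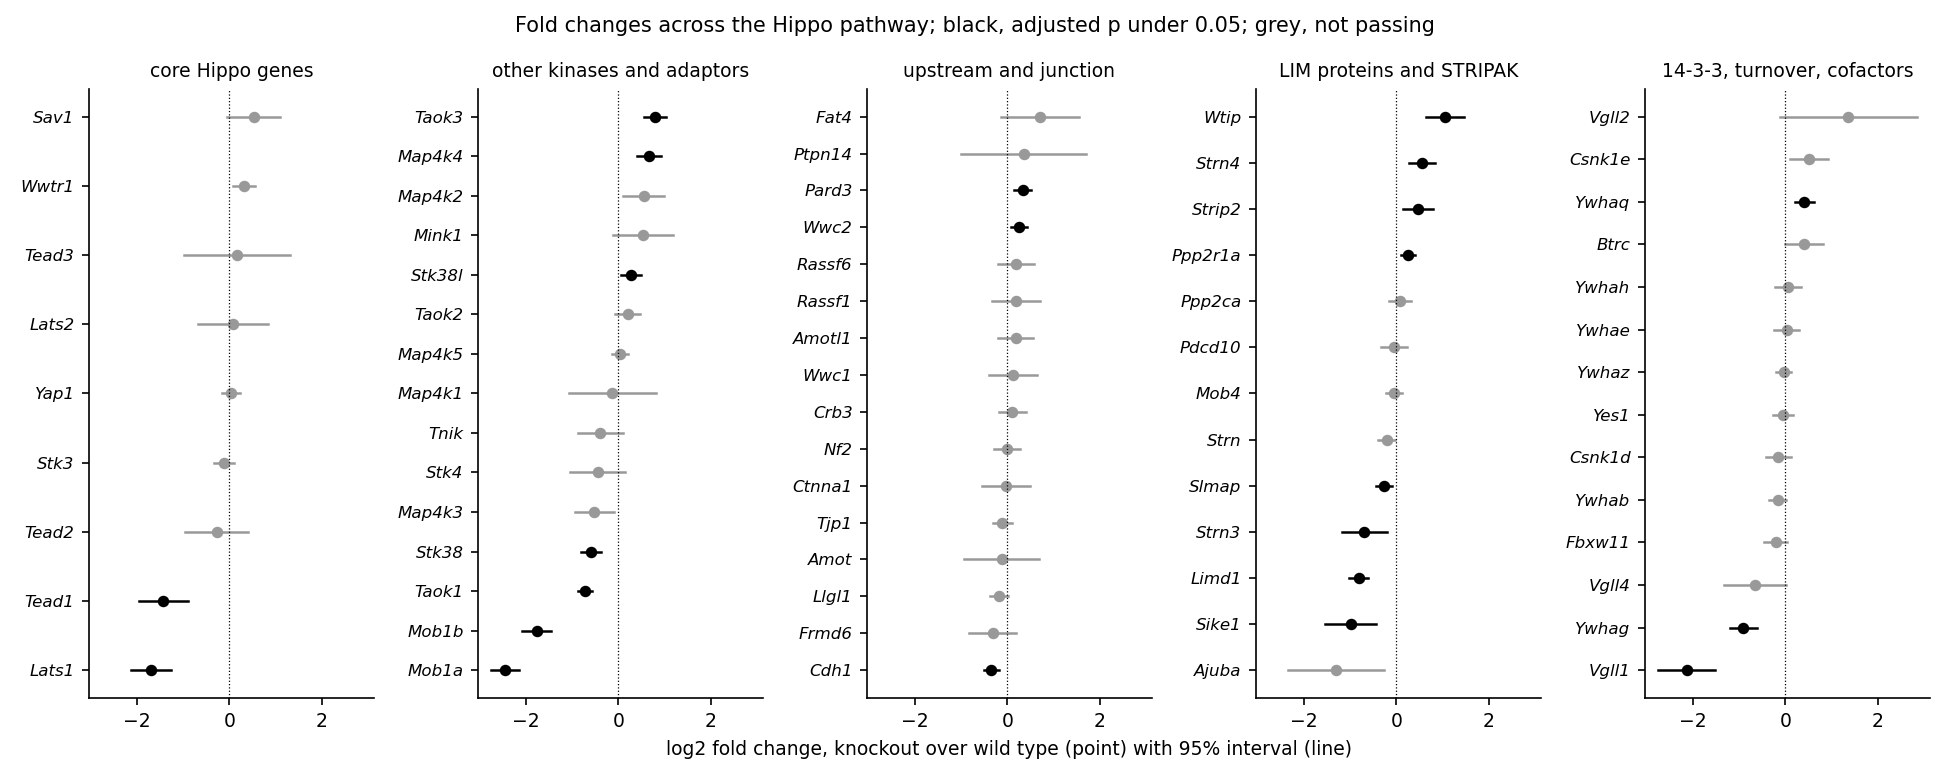
Log2 fold change, Zar1 knockout over wild type, of the tested genes (points) with their 95% intervals (lines), in panels by role, without 2 genes that are not reported here; the 9 tested core genes are in the leftmost panel. Black marks an adjusted p under 0.05 and grey marks genes that did not pass. Lats1, Mob1a, Mob1b, Tead1 and Vgll1 have the lowest called values of the panels, between -2.45 and -1.43.

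The remaining kinases and adaptors of the cascade were called in 7 of 15 cases, 3 higher and 4 lower (46.7%, against 33.4% of all tested genes). The MOB1 adaptors, which bind and activate LATS, were both lower. Mob1a had 6.38, 5.98 and 6.62 CPM in the knockout libraries, against 38.9, 32.7 and 32.4 CPM in the wild-type libraries. Mob1b had 14.1, 10.2 and 12.6 CPM in the knockout libraries, against 41.8, 40.3 and 43.6 CPM in the wild-type libraries. Both pairs of groups lay far apart. The log2 fold change was -2.45 ± 0.13 (SE, adjusted p = 1.20e-05, edgeR) for Mob1a and -1.77 ± 0.14 (SE, adjusted p = 4.50e-05, edgeR) for Mob1b. The coding sequences of the 2 genes are closely related, so the split of reads between them is uncertain. Their sum per kb was 2.14 ± 0.184 CPM in knockout and 10.0 ± 0.770 CPM in wild-type oocytes.

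Upstream of MST and LATS, 2 of the 3 TAO kinase genes were called, in opposite directions. Taok1 fell to 246 ± 12.2 CPM in knockout oocytes, against 405 ± 12.6 CPM in wild-type oocytes (log2 fold change -0.72, adjusted p = 0.000127, edgeR). Taok3 rose to 479 ± 55.6 CPM in knockout oocytes, against 277 ± 28.4 CPM in wild-type oocytes (log2 fold change 0.79, adjusted p = 0.000661, edgeR). Taok2, named after its values were seen, had 19.7, 19.5 and 17.4 CPM in the knockout libraries, against 16.9, 16.1 and 16.1 CPM in the wild-type libraries, and did not pass (adjusted p = 0.220, edgeR). Stk38, whose kinase NDR1 is related to LATS, fell to 34.4 ± 1.27 CPM in knockout oocytes, against 51.7 ± 4.54 CPM in wild-type oocytes. The other 2 called genes, named after their values were seen, were both higher: Map4k4, a kinase gene acting on LATS beside MST, with a log2 fold change of 0.66, and the NDR2 kinase gene Stk38l, with 0.28. The Stk38l call was lost in each fit without a library except that without wild-type replicate 2 (adjusted p up to 0.186). Map4k5, of the same family as Map4k4, was the most abundant of these kinases, with 883 ± 40.4 CPM in knockout and 857 ± 68.3 CPM in wild-type oocytes, and did not pass.

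**Figure D4:**
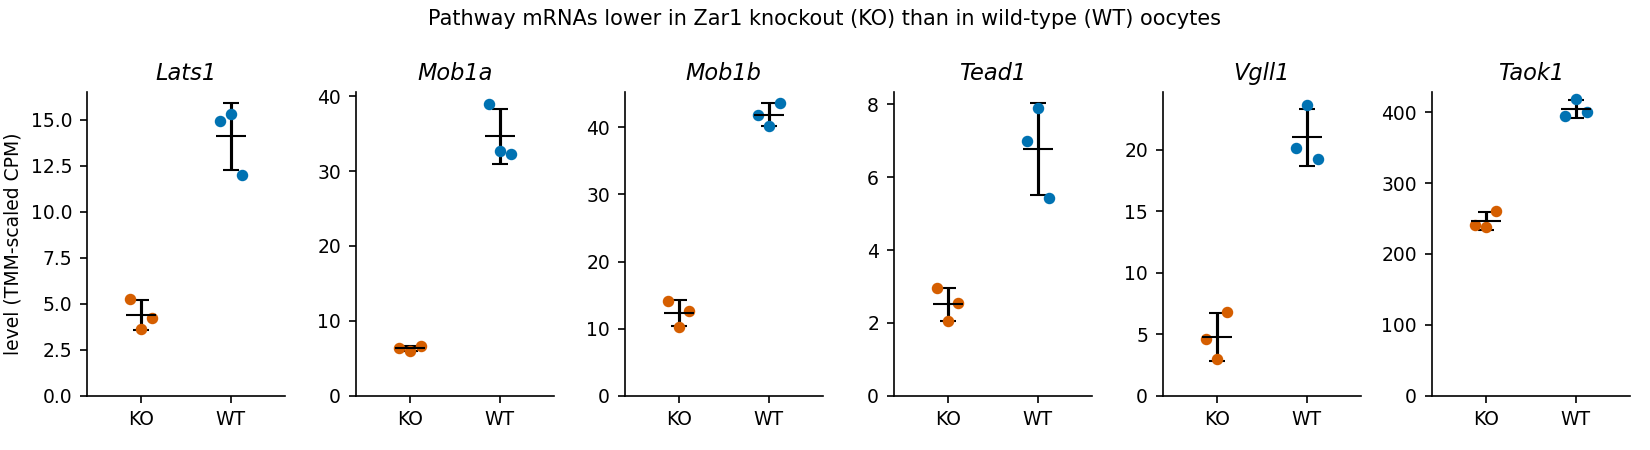
Level in CPM of Lats1, Mob1a, Mob1b, Tead1, Vgll1 and Taok1 in the 3 knockout (KO) and 3 wild-type (WT) libraries, with the mean and SD in black; each panel starts at 0. The genes were picked from those called lower. In every panel all KO libraries lie below all WT libraries, and the knockout mean is lowest relative to wild type for Mob1a and least low for Taok1.

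Among the upstream and cell-junction regulators, 17 of 20 genes were tested, with 2 higher, 1 lower and 14 not passing. The called share was 17.6%, against 33.4% of all tested genes. Wwc2, a KIBRA-family activator of LATS, was the most abundant listed pathway gene by mean CPM, though not per kb of exon. It had 1923, 2124 and 2143 CPM in the knockout libraries, against 1599, 1883 and 1701 CPM in the wild-type libraries. The groups did not overlap, and the log2 fold change of 0.26 passed edgeR's test (adjusted p = 0.0347), but the call was lost when either of the knockout replicates 2 and 3 or either of the wild-type replicates 1 and 3 was left out (adjusted p up to 0.131). Pard3, a polarity gene, rose with a log2 fold change of 0.34 (adjusted p = 0.0120, edgeR), and the call was lost without the wild-type replicate 2 or the wild-type replicate 3 library (adjusted p up to 0.0639). Cdh1, which encodes the junction protein E-cadherin, fell to 179 ± 8.89 CPM in knockout oocytes, against 228 ± 9.44 CPM in wild-type oocytes (log2 fold change -0.35, adjusted p = 0.00620, edgeR). The scaffold and junction genes Llgl1, Tjp1 and Ctnna1, each at 100 CPM or more in either genotype, did not pass. Their log2 fold changes lay between -0.18 and -0.04.

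The genes that restrain the kinases, the LIM-domain proteins that hold LATS and the phosphatase complex STRIPAK that dephosphorylates MST, were called in 9 of 14 cases, 5 higher and 4 lower. This share was 64.3%, against 33.4% of all tested genes, and the list was not tested as a set. Limd1, a LIM-domain gene, fell to 34.3 ± 1.18 CPM in knockout oocytes, against 60.2 ± 3.65 CPM in wild-type oocytes (log2 fold change -0.81, adjusted p = 0.000248, edgeR). Its relative Wtip rose to 8.13 ± 0.505 CPM in knockout oocytes, against 3.93 ± 0.493 CPM in wild-type oocytes (log2 fold change 1.05, adjusted p = 0.00248, edgeR). The Wtip call was lost with the correction for transcript GC content and length, where its log2 fold change was 0.46 (adjusted p = 0.0661, edgeR; 1.99e-06 to 0.0661 over the 17 alternatives). The third LIM-domain gene, Ajuba, named after its values were seen, averaged 0.330 ± 0.0864 CPM in knockout and 0.819 ± 0.317 CPM in wild-type oocytes. All its knockout libraries were lower, with a log2 fold change of -1.30 that did not pass edgeR's test (adjusted p = 0.0569). Of the STRIPAK genes, Strn4 rose (log2 fold change 0.55), as did the phosphatase scaffold gene Ppp2r1a (0.26), while Sike1 fell (-0.99) and Slmap, which links STRIPAK to MST, fell (-0.27). Of the other called genes, 2 are named after their values were seen, Strip2, which was higher (0.46), and Strn3, which was lower (-0.69). Strn, with a log2 fold change of -0.21, and the catalytic subunit gene Ppp2ca, with 0.08, were both above 100 CPM and did not pass. Among these calls, that on Sike1 was lost without wild-type replicate 1 (adjusted p = 0.0565, edgeR). The Ppp2r1a call was lost without knockout replicate 1 or any wild-type library (up to 0.0783), and the Slmap (up to 0.0900) and Strn3 (up to 0.120) calls without knockout replicate 1 or 2 or any wild-type library. The Strip2 call was kept only without knockout replicate 1 (up to 0.141 otherwise). That correction also ended the calls on Strn4, Sike1, Ppp2r1a, Slmap and Strn3, and with it the counts on this list fell to 2 higher and 2 lower.

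For the proteins that hold, mark for turnover or compete with YAP and TAZ, 14 of 16 genes were tested, with 1 higher, 2 lower and 11 not passing. The called share was 21.4%, against 33.4% of all tested genes. Vgll1, a cofactor that binds TEAD in place of YAP, had 4.61, 2.95 and 6.79 CPM in the knockout libraries, against 20.1, 23.7 and 19.3 CPM in the wild-type libraries. The groups were far apart, and the log2 fold change was -2.14 ± 0.27 (SE, adjusted p = 0.000512, edgeR). The Ywha genes encode adaptors that bind phosphorylated YAP in the cytoplasm. Ywhag fell to 258 ± 50.5 CPM in knockout oocytes, against 483 ± 14.5 CPM in wild-type oocytes (log2 fold change -0.90, adjusted p = 0.000870, edgeR). Ywhaq rose to 229 ± 22.2 CPM in knockout oocytes, against 172 ± 6.82 CPM in wild-type oocytes (log2 fold change 0.42, adjusted p = 0.00631, edgeR). Ywhab, Ywhae and Ywhaz, which are of similar abundance, had log2 fold changes between -0.17 and 0.03 and did not pass.

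Of the turnover genes, Csnk1e encodes a casein kinase that marks YAP for degradation after LATS. It had 1287, 1322 and 2097 CPM in the knockout libraries, against 981, 1258 and 1055 CPM in the wild-type libraries. The knockout libraries were all higher, with the replicate 3 library far above the other two, and the log2 fold change of 0.51 did not pass edgeR's test (adjusted p = 0.0560). It passed with upper-quartile factors, no filter, a stricter filter and DESeq2, and without knockout replicate 1 or 2. Its adjusted p spanned 5.12e-05 to 0.968 over the 17 alternatives, and without knockout replicate 3 the log2 fold change was 0.25. Btrc, the F-box gene that follows Csnk1e in that route, averaged 492 ± 138 CPM in knockout and 370 ± 54.6 CPM in wild-type oocytes and did not pass.

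Target genes of the pathway ranged between near 0 and the level of abundant mRNAs. In a published signature of 22 YAP and TAZ target genes, defined in cultured cells, 11 genes stayed under 1 CPM in every library and 11 were tested, of which 1 was called higher, 3 lower and 7 did not pass (36.4% called, against 33.4% of all tested genes). The classical targets Ccn1, Ccn2 and Ankrd1, named after their values were seen, had 0 to 4 counts each in every library and were not tested.

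The called target genes did not share a direction. Myof, a membrane repair gene, rose, with 2.00, 2.63 and 2.16 CPM in the knockout libraries, against 1.04, 0.596 and 0.616 CPM in the wild-type libraries (log2 fold change 1.58, adjusted p = 0.00719, edgeR). Rbms3, an RNA-binding protein gene, fell to 4, 2 and 2 counts in the knockout libraries, against 109, 57 and 94 counts in the wild-type libraries. It was nearly absent from every knockout library, with a log2 fold change of -4.96 and an interval of -6.05 to -3.88 (adjusted p = 0.000131, edgeR). Asap1 fell by 0.39 on the log2 scale (adjusted p = 0.00855, edgeR), a call that was lost with the correction for transcript GC content and length (log2 fold change -0.23, adjusted p = 0.0671, edgeR; 0.00107 to 1 over the 17 alternatives). Arhgef17 fell by 1.05 on the log2 scale (adjusted p = 0.0361, edgeR), and that call was lost when any of the 6 libraries was left out (adjusted p 0.0538 to 0.0999). The abundant target Tgfb2, a ligand gene, averaged 618 ± 23.1 CPM in knockout and 634 ± 49.4 CPM in wild-type oocytes, and Dock5 averaged 170 ± 14.5 CPM in knockout and 175 ± 10.0 CPM in wild-type oocytes. Neither of these passed. Lats2, described above, belongs to this signature too.

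Genes that YAP or TEAD4 act on in the early embryo were also listed, 12 in all. Of these, 7 were tested, 1 was called higher, 0 were called lower and 6 did not pass (14.3% called, against 33.4% of all tested genes). The lineage genes Cdx2, Eomes, Elf5 and Nanog were too low to test. Krt8, a keratin gene of the trophectoderm, rose to 489, 190 and 518 counts in the knockout libraries, against 15, 11 and 4 counts in the wild-type libraries. All knockout libraries were far above all wild-type libraries (log2 fold change 5.32, interval 4.16 to 6.48, adjusted p = 0.00013, edgeR). Krt18, its usual filament partner, had 0, 2 and 0 counts in the knockout libraries, against 2, 0 and 0 counts in the wild-type libraries. Sox2, an inner cell mass gene, averaged 0.509 ± 0.170 CPM in knockout and 0.986 ± 0.367 CPM in wild-type oocytes and did not pass (adjusted p = 0.134, edgeR). Rrm2, a ribonucleotide reductase gene that maternal YAP helps to activate in the embryo, is named after its values were seen. It averaged 54.5 ± 6.23 CPM in knockout and 62.4 ± 1.33 CPM in wild-type oocytes and did not pass either.

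Annotated 3' UTR length was set beside the fold changes, in the core and the other pathway genes by role with a 3' UTR of at least 150 bases. The median length was 1244 bases over the 11903 tested coding genes. Of the 13 pathway genes called lower, 11 were longer than that, as were 7 of the 11 called higher and 25 of the 44 that did not pass. The lengths spanned 471 to 8705 bases among the genes called lower, with a median of 2586 bases, and 445 to 4759 bases among the genes called higher, with a median of 1383 bases, so the groups overlapped. Lats1 has 3450 bases, Tead1 8147, Mob1a 3523, Mob1b 8048 and Taok1 8705, while Cdh1, with 1631 bases, and Limd1, with 2309 bases, were also called lower. The lower calls under the median length were Vgll1, with 1094 bases and a log2 fold change of -2.14, and Strn3, with 471 bases and -0.69. Over all tested coding genes the fold change ran lower with length. The median log2 fold change was 0.13 in the 2535 genes with 150 to 500 bases of 3' UTR, -0.18 in the 1448 genes with 3000 to 5000 bases and -0.22 in the 585 genes with more. In the longest of these classes 9.4% of the genes were called higher and 36.1% lower, against 20.7% higher and 11.6% lower in the shortest. Longer 3' UTRs among genes called lower are thus not particular to the pathway. Among the core genes that did not pass, Wwtr1 has 3277 bases and Yap1 2498 bases. With per-library trends over transcript GC content and length taken out, the log2 fold change was -1.40 for Lats1 (adjusted p = 0.000860), -1.21 for Tead1 (0.00443), -2.21 for Mob1a (2.25e-05), -1.40 for Mob1b (0.000146) and -0.38 for Taok1 (0.00234), all in edgeR. The calls on Lats1, Tead1, Mob1a, Mob1b and Taok1 were kept with these trends removed, at a smaller size. These trends were over the length of the whole transcript, and the part of 3' UTR length in the calls was not tested.

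**Figure D5:**
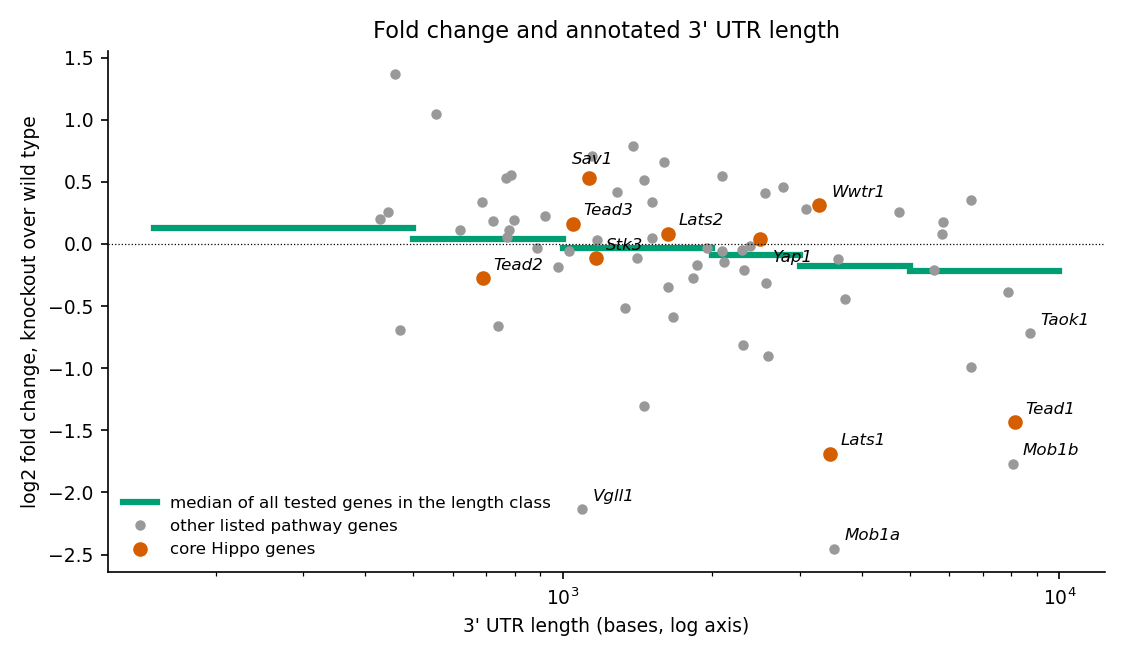
Log2 fold change, Zar1 knockout over wild type, against the annotated 3' UTR length in bases (log axis) for the core Hippo genes (orange) and the other listed pathway genes (grey); green lines give the median of all tested coding genes in each of 6 length classes. The green medians step down with length between 0.13 and -0.22, and Lats1, Tead1, Mob1a and Mob1b lie more than 1 log2 unit below the median of their class.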

How the data were processed

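Poly(A) RNA of 10 GV oocytes per library was made into libraries with a QIAseq FX kit, per the labels' protocols. The deposited values are whole-number counts per Ensembl gene, 1 file per library; the submitters' processing notes name bcl2fastq 2.20.0.422, cutadapt 2.8, STAR 2.7.8a, HTSeq 0.13.5 and the build mm39. The authors' summary rows (no feature 4.84% to 5.70%, ambiguous 4.21% to 4.42% and not unique 13.9% to 15.0% of all reads tallied) were left out, so reads from closely related copies are missing. Counts are relative to each library's total, and a change in poly(A) tail that alters capture cannot be told apart from a change in mRNA amount.

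From the counts, CPM with TMM factors and fold changes were computed in edgeR 4.0.16 (R 4.3.3, quasi-likelihood test, filterByExpr, Benjamini-Hochberg over 16473 genes), after the script had been tested on simulated data. Intervals are 95% intervals of the fitted log2 fold change. Alternatives used limma 3.58.1, DESeq2 1.42.0, other scalings and filters, a replicate block and each library left out. The 10 genes and all lists were chosen with earlier results of these data known, so they give no independent support. Named genes were all 10 core genes, and from each other list up to 5 called genes with the smallest adjusted p (the 2 smallest where fewer than 2 passed) and any gene at 100 CPM or more. The genes most like Yap1 were the 5 with the highest r of log2 CPM over 6 libraries, among genes at 10 CPM or more. Symbols, exon lengths and 3' UTRs came from GENCODE M21 (GRCm38), matched to the files by Ensembl identifier without version, so no coordinates are given. No pair of libraries agreed within sampling noise (chi-square per degree of freedom 13.8 to 45.3 within groups), and all were kept. The values of 2 listed genes are counted in the list totals but are not reported here.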

Additional observations from a re-analysis of the deposited data

How the results depend on the processing

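The lower calls on Lats1 and Tead1 held in all 17 alternatives. Their log2 fold changes were -1.83 to -1.40 for Lats1 and -1.58 to -1.21 for Tead1. No call on a core, pathway, target or early-embryo gene reversed its direction. Fold changes of genes that did not pass could change sign, as for Yap1 (-0.06 to 0.11). One Hippo gene, Wwtr1, became called higher (a count of 1) with RLE factors, upper-quartile factors, a stricter filter, DESeq2 and the GC and length offsets. Leaving out each library gave 0 to 1 higher calls among the Hippo genes, the 1 being Wwtr1 without knockout replicate 1. Over all genes these fits called 1541 to 2509 genes higher, the fewest without wild-type replicate 3.

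The replicate numbers gave no sign of pairing between the libraries (correlations of same-numbered deviations -0.00898, -0.0420 and -0.0252). With 3 libraries per group this check cannot exclude a pairing. A replicate block called 2078 genes higher and 2760 lower and changed no call among the Hippo genes. Against a 1.5-fold change, 417 genes were called higher and 1067 lower. In that test the kinase list had 0 higher and 2 lower, the upstream list 0 and 0, the kinase-restraining list 1 and 1, the YAP-holding, turnover and cofactor list 0 higher, and the target list 1 lower. With the GC and length offsets the upstream list had 2 lower, the kinase-restraining list 2 higher and 2 lower, and the cofactor list 2 higher. The cofactor list also had 2 higher with upper-quartile factors and the stricter filter, and 3 with no filter and with DESeq2. Leaving out each library gave 0 to 2 higher for the upstream list, 2 to 4 higher and 1 to 4 lower for the kinase-restraining list, and 1 to 2 higher for the cofactor list. The cause of these moves was not tested. The low counts of Tead3 and Tead4 limit what can be said of them.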
